A study of Mus musculus with 8 samples.

Results

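The thermogenic program around Ppargc1a was followed here through 10 genes of heat production and mitochondrial function, Ppargc1a, Ppargc1b, Prdm16, Esrra, Ppara, Ucp1, Ucp2, Dio2, Cidea and Tfam. Every probe set whose platform annotation gave exactly 1 symbol, being one of these, was taken, which gave 22 of 45101 probe sets and covered 9 of the 10 genes, of 18193 genes with such a probe set in all. No probe set annotated to Ucp2 was used here. The 10 genes were selected on earlier results of these same arrays, knockout against control, so the differences below describe them and test nothing. The cells were subcutaneous preadipocytes, which can mature into fat cells, cultured from day 2 newborn mice of C57BL/6 background, and both groups were Dicer lox/lox. The 4 Dicer knockout samples had received adenovirus with Cre recombinase and eGFP under the CMV promoter, and the 4 control samples adenovirus with eGFP alone, at 750 MOI with 4 μg/mL polybrene. RNA was collected 4 days after infection and put on Affymetrix arrays, 1 per sample. A Cre virus in cells without the lox sites was not analysed here, so effects of Cre and of Dicer loss cannot be told apart. The samples are labelled as biological replicates 1 to 4 in each group, with no animal or culture named, and p-values measure only the spread between these samples.

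Brown and beige fat cells burn fuel for heat. Cold acts through noradrenaline and cAMP to induce Ppargc1a, a coactivator that binds nuclear receptors such as the products of Esrra and Ppara and raises the expression of mitochondrial genes and of Ucp1, the carrier that lets protons re-enter the mitochondrion without making ATP. Prdm16 sets brown and beige cell fate, Dio2 makes active thyroid hormone inside the cell, Cidea is a lipid droplet protein abundant in brown fat, and Tfam packages and transcribes mitochondrial DNA. Precursor cells that have not been induced to differentiate are known to hold little Ucp1.

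Of the 45101 probe sets, the upper 60% by mean log2 value, 27027 without array controls, entered the fits, and 13259 genes were represented by their brightest tested probe set. The median signal of an array lay between 321.1 and 418.8, and the number of arrays limits the precision. Each array correlated best with the array of the same replicate number in the other group, at 0.968 to 0.973. The 18S ribosomal RNA 5′ control probe set read 5905.9 to 14007.2 on the arrays numbered 1 and 3 and 30583.9 to 43029.9 on those numbered 2 and 4, so differences within each replicate pair are given for the members. Within each pair the knockout array also read higher on this probe set. Pairs 1 to 4 gave 14007.2, 42617.5, 9524.9 and 43029.9 in knockouts, against 11355.6, 30583.9, 5905.9 and 36375.2 in controls. The part of this difference in the results below was not tested. The transcript of Dicer1, the floxed gene, read 1158.3, 1190.4, 1403.8 and 1110.1 on knockout arrays 1 to 4, against 1152.7, 1140.7, 2113.7 and 1190.3 on control arrays 1 to 4 by its brighter probe set (1460571_at), and the groups overlapped. The dimmer (1427941_at) averaged 577 ± 123 in knockouts and 737 ± 289 in controls (SD, n = 4 each). Their position relative to the excised segment was not analysed here, so neither checks the deletion.

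The cells carried the markers of their label, and some markers of other cell types also gave signal. Of 10 preadipocyte and fibroblast markers 9 had a probe set and all 9 passed the filter, among them Col1a2 at 121000 ± 8132 in knockouts and 121300 ± 13940 in controls, and Vim at 85980 ± 3402 in knockouts and 81000 ± 2158 in controls (SD, n = 4 each). Of the 8 markers of mature fat cells with a probe set, 6 were tested. The brightest were Lpl, at 24650 ± 9962 in knockouts and 23460 ± 9993 in controls, and Fabp4, at 4999 ± 2085 in knockouts and 3143 ± 795 in controls (SD, n = 4 each; log2 difference 0.55, SE 0.34, higher in 3 of 4 pairs). Lpl also had a log2 difference above 0. The other 4 tested lay below 0: Slc2a4 -0.008 (SE 0.18), Pnpla2 -0.012 (SE 0.18), Retn -0.26 (SE 0.24) and Lipe -0.27 (SE 0.20). Adipoq and Lep were below the filter, under 73.1 on 3 and 6 of the 8 arrays. The sum over the 6, of which Lpl makes up the most, was 15685.8 to 41104.6 on knockout arrays and 15786 to 41271.6 on control arrays, lowest on the arrays numbered 1 in both groups. The 4 tested skeletal muscle markers summed to 2677.5 to 3754.8 on knockout arrays and 1893.8 to 3091.4 on control arrays, and all had a log2 difference above 0: Des 0.03 (SE 0.23), Acta1 0.53 (SE 0.19), Myod1 0.55 (SE 0.32) and Ckm 0.74 (SE 0.46). Of the 4 below the filter, Pax7 averaged 220 ± 48.3 in knockouts and 118 ± 127 in controls and Myog 114 ± 74.9 in knockouts and 33.3 ± 12.8 in controls (SD, n = 4 each), while Myf5 and Myh3 were under 73.1 on all 8 arrays. None of the tested fat cell and muscle markers passed an adjusted p of 0.05 in either of limma's fits. Dlk1, which marks preadipocytes, read 31350 ± 19680 in knockouts and 48650 ± 19280 in controls (SD, n = 4 each) and was called lower in limma's paired fit, which takes the replicate number as a block (adjusted p = 0.0436), and not in the unpaired fit (adjusted p = 0.999). Of the markers with a probe set, 5 of 8 for macrophages and leukocytes and 3 of 6 for endothelium were tested. For epithelium 2 of 5 were tested, and for Schwann and neural cells 1 of 3. The brightest of each averaged 1007 and 1343 (Cd68), 1014 and 1006 (Kdr), 1750 and 2285 (Krt10) and 522 and 671 (Sox10) in knockouts and controls. Of the 5 tested for macrophages and leukocytes, 3 had a log2 difference above 0 and 2, with Cd68, below. All 3 for endothelium lay above 0. The 2 for epithelium went opposite ways, with Epcam at 1724 ± 379 in knockouts and 1258 ± 162.5 in controls (SD, n = 4 each). None of these tested markers passed an adjusted p of 0.05 in either of limma's fits. The part of all these markers in the results below was not tested.

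RefSeq promoter sequences of build GRCm38.p6, matched by symbol, were used for 8 of the 10 genes. Those of Ppargc1b and Cidea were left out of the search, so nothing is said of their promoters. The 250 bases before the 1 start site that the RefSeq table gives for a gene are shown for Ppargc1a, whose signal the results turn on, for Dio2, another gene that cAMP induces in brown fat, and for Tfam, a gene that lies downstream of Ppargc1a. Capitals mark matches on either strand to the cAMP response element TGACGTCA, its short form TGACG or the GABP site CCGGAAG, and each sequence runs 5′ to 3′ along the transcribed strand.
Ppargc1a, chr5:51567726-51567975, strand -: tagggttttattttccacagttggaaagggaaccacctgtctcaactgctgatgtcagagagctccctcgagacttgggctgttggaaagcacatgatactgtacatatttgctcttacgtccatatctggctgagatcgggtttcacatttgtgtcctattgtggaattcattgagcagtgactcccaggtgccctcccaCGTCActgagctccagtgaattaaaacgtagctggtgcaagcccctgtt
Dio2, chr12:90739039-90739288, strand -: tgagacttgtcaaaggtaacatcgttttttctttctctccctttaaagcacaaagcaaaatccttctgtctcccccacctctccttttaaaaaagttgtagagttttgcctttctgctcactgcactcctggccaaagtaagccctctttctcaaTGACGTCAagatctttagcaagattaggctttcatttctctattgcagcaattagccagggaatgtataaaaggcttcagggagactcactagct
Tfam, chr10:71238045-71238294, strand -: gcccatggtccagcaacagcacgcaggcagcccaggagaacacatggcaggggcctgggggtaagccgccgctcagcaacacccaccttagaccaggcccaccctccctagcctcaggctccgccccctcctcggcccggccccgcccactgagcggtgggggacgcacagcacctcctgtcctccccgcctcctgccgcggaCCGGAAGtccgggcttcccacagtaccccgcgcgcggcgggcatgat

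In the Ppargc1a sequence 1 match to the short form, on the opposite strand, lay 49 to 45 bases before the start, and there was no match to the full element. The Ppargc1a and Tfam windows lie inside the annotated extent of their genes, and the promoters of other start sites were not searched. The Dio2 sequence held the full element 95 to 88 bases before the start, and both of its matches to the short form, 1 on each strand, lay inside it. The Tfam sequence held 1 GABP site 47 to 41 bases before the start. Among 32851 promoter sequences of the same length, 1.55% held the full cAMP response element, 17.8% its short form and 6.91% the GABP site. A search for the ERR element TNAAGGTCA, present in 1.14% of these sequences, and for the NRF-1 site, present in 3.74%, gave no match in these 3 windows. Of the member windows not shown, that of Ppara held 1 NRF-1 site and 1 short form. Those of Ucp1 and Ucp2 held 1 short form each, and those of Esrra and Prdm16 held no match. These matches are letters in a window and were not set against any binding data.

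Ppargc1a was the member with the largest differences among those above the filter, and all 5 of its probe sets read lower on average in the knockout. The brightest (1456395_at) read 965.2, 504.2, 642.7 and 403.1 on knockout arrays 1 to 4, against 1088.4, 1262.8, 1523.9 and 600.3 on control arrays 1 to 4. Knockout arrays 2, 3 and 4 were low and control arrays 1, 2 and 3 high. Knockout arrays 1 and 3 lay above control array 4, so the groups overlapped. The means were 629 ± 245 in knockouts and 1119 ± 389 in controls (SD, n = 4 each), a log2 difference of -0.76 (SE 0.29). Log2 differences are knockout minus control on the log2(signal + 73.1) scale, which understates the change of dim probe sets. In bulk RNA, fewer cells that express a gene and less of its RNA per cell cannot be told apart.

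The other Ppargc1a probe sets were also lower on average in the knockout, with knockout array 1 inside the control range on each. Knockout array 3 was inside it on all but 1434099_at, and knockout array 2 on 1434100_x_at. Probe set 1437751_at read 899, 517, 701.6 and 429.6 on knockout arrays 1 to 4, against 885.5, 1265.4, 1079.3 and 603 on control arrays 1 to 4. Probe set 1460336_at read 881.5, 512, 634.5 and 214.6 on knockout arrays 1 to 4, against 1107.8, 1109.3, 1452.9 and 552.7 on control arrays 1 to 4. In both, knockout array 4 was the lowest of the 8 and control array 4 was below knockout arrays 1 and 3. Probe set 1434100_x_at read 549.2, 395.9, 397.8 and 12.3 on knockout arrays 1 to 4, against 802.2, 1217.4, 1063.7 and 232.9 on control arrays 1 to 4. Probe set 1434099_at, designed from the same source sequence as 1434100_x_at, read 450.6, 188.1, 203.8 and 161.3 on knockout arrays 1 to 4, against 719.3, 831, 580.2 and 262.9 on control arrays 1 to 4. The value of 12.3 was the only Ppargc1a value under 73.1, and the same array gave 161.3 to 429.6 on the other Ppargc1a probe sets.

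**Figure D1:**
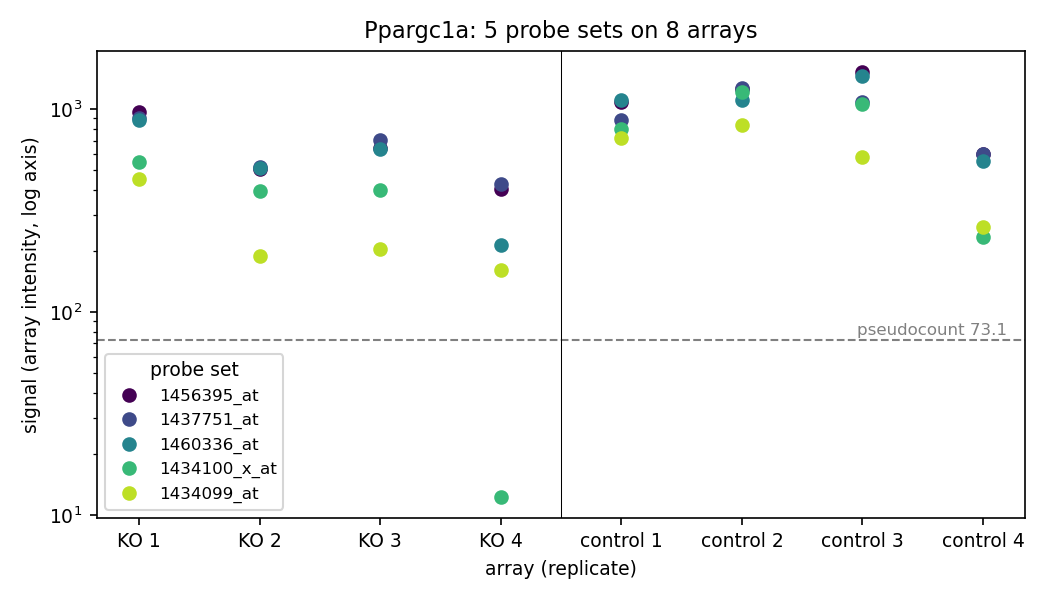
Signal (array intensity, log axis) of the 5 Ppargc1a probe sets on knockout arrays 1 to 4 and control arrays 1 to 4, each point 1 array, with the pseudocount of 73.1 as a dashed line. Knockout arrays 2 to 4 and control array 4 lie low on all 5 probe sets. Knockout array 1 lies within the range of the controls on all 5, and knockout array 3 on all but 1434099_at. Knockout array 2 does so on 1434100_x_at only.

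The log2 differences of the 5 Ppargc1a probe sets ranged from -1.27 to -0.54, or 0.416 to 0.688 of the control level. Without knockout array 4, on which 1434100_x_at read 12.3, its difference was -0.617 in place of -1.27, and that of 1460336_at was -0.55 in place of -0.89. Taken as pairs, 19 of the 20 differences between same-numbered arrays were below 0, the exception being 1437751_at in pair 1 at 0.0202. The median of the 5 probe sets' own differences was -0.307 in pair 1, -1.21 in pair 2, -1.16 in pair 3 and -0.52 in pair 4. The difference was thus nearest to 0 in pair 1. On the log2 scale a probe set had a SD of 0.421 to 1.31 over the 4 knockout arrays and 0.425 to 0.944 over the 4 control arrays. The 5 probe sets report the same gene and are not replicates of the comparison. Their deviations from the group means correlated at 0.742 to 0.952 over the 8 arrays in the 10 comparisons between probe sets.

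**Figure D2:**
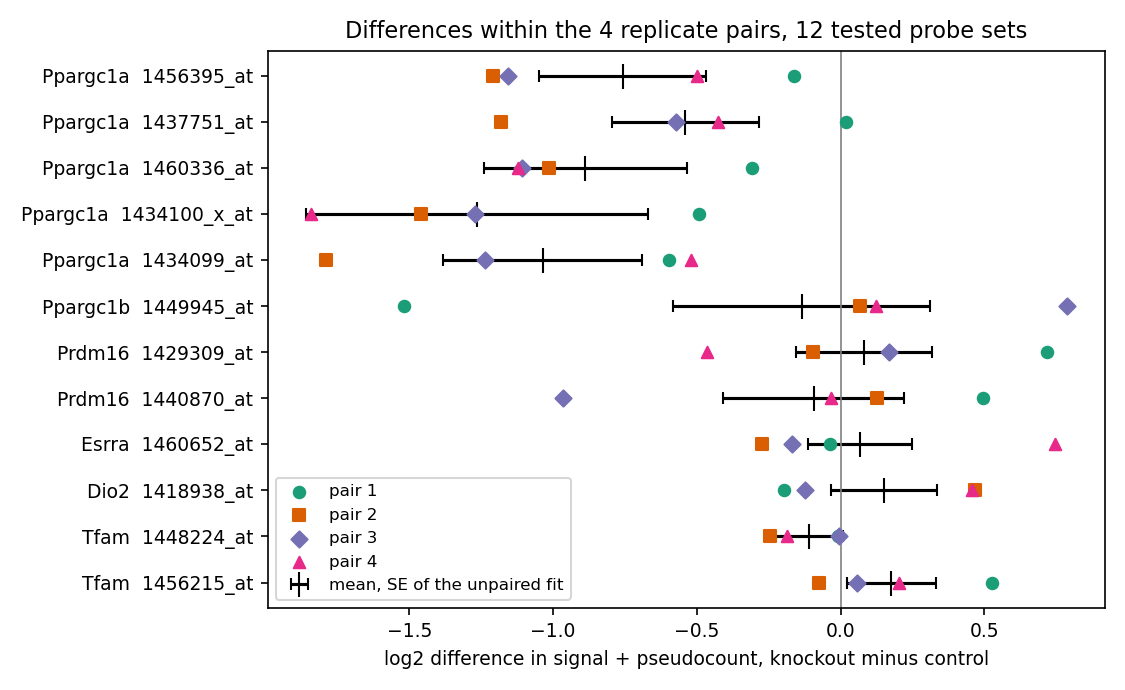
Log2 difference between the knockout and the control array of each replicate pair (coloured symbols) for the 12 tested probe sets of the members, with the mean and the SE of the unpaired fit in black. The Ppargc1a symbols lie left of 0 in 19 of 20 cases, and those of the other members fall on both sides of 0 except for 1 Tfam probe set, 1448224_at, whose 4 symbols lie left of 0.

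Ppargc1b, the related coactivator with overlapping partners, had 1 probe set (1449945_at). It read 86.1, 106.7, 419.2 and 377.3 on knockout arrays 1 to 4, against 383.6, 98.5, 212.4 and 340.8 on control arrays 1 to 4. High and low arrays occurred in both groups, with means of 247 ± 175 in knockouts and 259 ± 129 in controls (SD, n = 4 each) and a log2 difference of -0.14 (SE 0.45). Pair 1 differed by -1.52 and pair 3 by 0.786, so the pairs did not share a direction.

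Prdm16, the fate regulator, had 4 probe sets, of which 2 were above the filter. The brighter (1429309_at) read 608.8, 362.5, 372.9 and 374 on knockout arrays 1 to 4, against 341.1, 392.9, 323.4 and 544.1 on control arrays 1 to 4, a log2 difference of 0.08 (SE 0.24). Knockout array 1 and control array 4 were the high ones, and the rest lay between 323.4 and 392.9. The second (1440870_at) averaged 219 ± 60.3 in knockouts and 250 ± 126 in controls (SD, n = 4 each), a log2 difference of -0.09 (SE 0.32). Below the filter, 1429308_at, which shares its source sequence with 1429309_at, read 181, 45.3, 25.2 and 52.9 on knockout arrays 1 to 4, against 26.3, 200.5, 235.6 and 425.3 on control arrays 1 to 4. Its log2 difference of -0.87 (SE 0.57) came with the opposite direction in pair 1, at 1.35, and with 4 of 8 arrays under 73.1. The dimmest, 1440745_at, was under 73.1 on all 8 arrays.

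Esrra, the nuclear receptor through which Ppargc1a acts on many respiratory genes, had a bright and a dim probe set. The bright one (1460652_at) read 1267.5, 1331.8, 1112.6 and 1625 on knockout arrays 1 to 4, against 1301.4, 1624.1, 1259 and 939.1 on control arrays 1 to 4. The ranges overlapped almost fully, with means of 1334 ± 215 in knockouts and 1281 ± 280 in controls (SD, n = 4 each) and a log2 difference of 0.07 (SE 0.18). Pair 4, in which Ppargc1a was low in both arrays, differed by 0.746 on this probe set, and the other pairs by -0.273 to -0.036. The dim one (1442864_at), below the filter, read 26.7 to 321 on knockout arrays and 46.5 to 237.6 on control arrays, with the arrays numbered 1 and 3 high and those numbered 2 and 4 low in both groups.

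Ppara, the receptor that drives fatty acid oxidation genes, had 3 probe sets, and all lay below the filter. The brightest (1457721_at) read 228.9, 54, 261 and 101.9 on knockout arrays 1 to 4, against 239, 337.1, 112.9 and 204.6 on control arrays 1 to 4, a log2 difference of -0.39 (SE 0.41). Its pairs differed by -1.69 to 0.845. The next (1439675_at) read 70.6, 238.1, 104.2 and 69 on knockout arrays 1 to 4, against 220.6, 215.7, 85.6 and 223.4 on control arrays 1 to 4, a log2 difference of -0.46 (SE 0.35). The dimmest (1449051_at) was under 73.1 on 7 of 8 arrays. Averages were lower in the knockout on all 3, at levels where the arrays disagreed by several fold within a group.

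Ucp1, the heat-producing carrier, was at the floor of the measurement. Its probe set (1418197_at) read 13.3, 34.7, 65.1 and 39.2 on knockout arrays 1 to 4, against 23.4, 43.3, 60.9 and 65.9 on control arrays 1 to 4. All 8 values were under 73.1, so no fold between the groups is given. Cidea (1417956_at) was likewise below the filter, at 33.2, 24.5, 117.1 and 16.6 on knockout arrays 1 to 4, against 55.5, 26.6, 107.2 and 16 on control arrays 1 to 4. The arrays numbered 3 were the highest in both groups and the only ones above 73.1. These 2 defining genes of brown fat therefore gave no level that could be compared.

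Dio2, the deiodinase, had 1 of 3 probe sets above the filter. That probe set (1418938_at) read 544.1, 778.8, 597.2 and 691 on knockout arrays 1 to 4, against 633.8, 542.9, 656.9 and 484.2 on control arrays 1 to 4. The means were 653 ± 104 in knockouts and 579 ± 80.3 in controls (SD, n = 4 each), a log2 difference of 0.15 (SE 0.18), and the groups overlapped. The even-numbered pairs differed by 0.468 and 0.455 and the odd-numbered pairs by -0.196 and -0.123, so the direction followed the replicate numbers that the 18S control probe set also separates. Of the dim probe sets, 1418937_at averaged 184 ± 116 in knockouts and 154 ± 45.9 in controls, and 1426081_a_at 136 ± 84.7 in knockouts and 109 ± 144 in controls (SD, n = 4 each).

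Tfam, which coats and transcribes mitochondrial DNA, was bright on both of its probe sets. The brighter (1448224_at) read 6877.4, 6021.2, 6153.5 and 7307.9 on knockout arrays 1 to 4, against 6928.7, 7150.6, 6177.8 and 8319.6 on control arrays 1 to 4, a log2 difference of -0.11 (SE 0.12). All 4 pairs were below 0, but pairs 1 and 3 were close to it, at -0.0106 and -0.00562. Pairs 2 and 4 differed by -0.245 and -0.185. The other (1456215_at) averaged 1085 ± 115 in knockouts and 954 ± 125 in controls (SD, n = 4 each), a log2 difference of 0.18 (SE 0.16), with 3 of 4 pairs above 0. The 2 Tfam probe sets thus disagreed in direction.

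**Figure D3:**
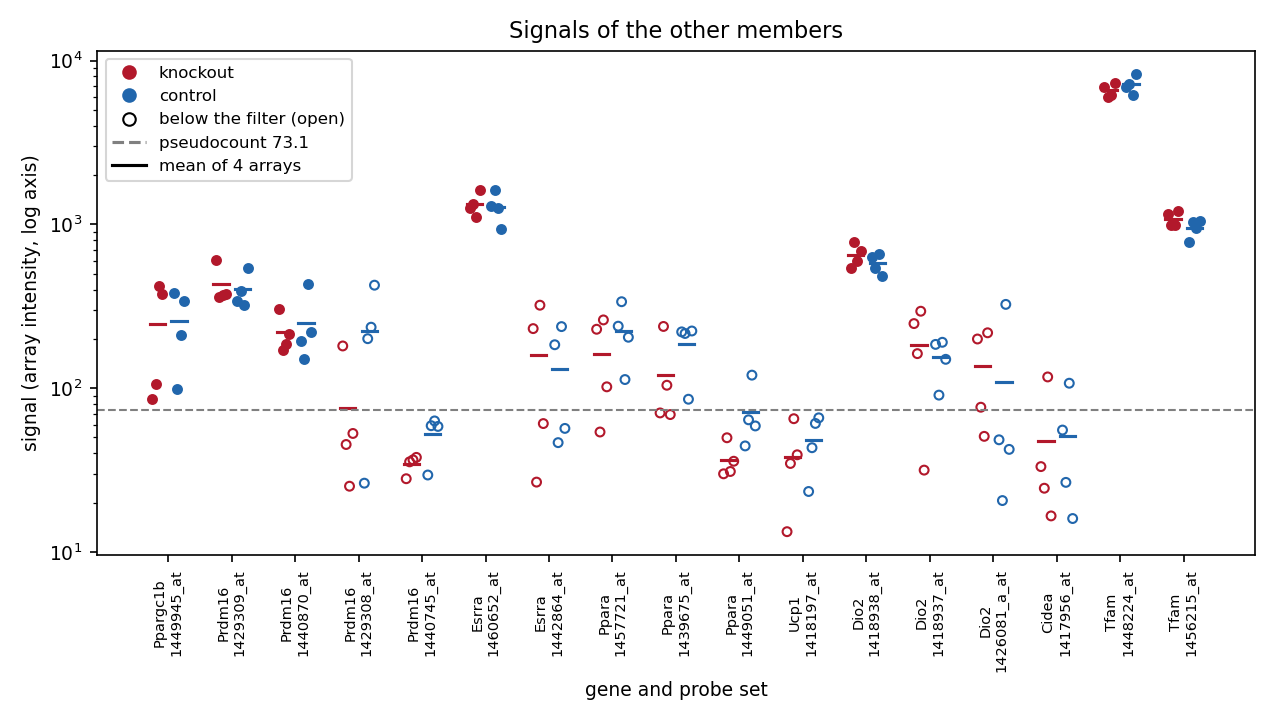
Signals (log axis) of the 17 probe sets of the members other than Ppargc1a on knockout arrays (red) and control arrays (blue), with the mean of 4 arrays as a short line, open circles for probe sets below the filter and the pseudocount of 73.1 dashed. The groups overlap on all 17 probe sets, and Ucp1 and 1440745_at of Prdm16 lie under the dashed line on all 8 arrays.

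Of the 12 tested member probe sets, 0 passed an adjusted p of 0.05 in limma's unpaired fit and 0 in its paired fit. Over all 27027 tested probe sets, 0.0037% were called higher and 0% lower in the unpaired fit, and 0.037% higher and 0.0111% lower in the paired fit. At an unadjusted p under 0.05 there were 3 member probe sets in the unpaired and 5 in the paired fit, all of Ppargc1a and all lower, where 1.69% and 4.47% of all tested probe sets were lower and 2.08% and 4.67% higher at that level. In 0 of the 12 were the groups free of overlap, where all knockout arrays lay below all controls in 1.06% and above them in 1.4% of all tested probe sets. Lower in 4 of 4 pairs were 5 of the 12, namely 4 of Ppargc1a and 1448224_at of Tfam, and 0 were higher in 4 of 4, against 8.24% and 8.61% of all. Since these members were chosen with this comparison known, the counts describe them only. The median log2 difference over the 12 was -0.12, against 0.0057 over all tested probe sets. Since 5 of the 12 are of Ppargc1a alone, this median does not describe the other members. Their tested probe sets lay on both sides of 0, from -0.14 to 0.18.

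The wider pathway was read through 12 lists of 196 genes grouped by known function, of which 158 were tested. None passed an adjusted p of 0.05 in limma's unpaired fit (smallest adjusted p = 0.999) or its paired fit (smallest adjusted p = 0.127), where 0% of all tested genes were called in the unpaired fit and 0.0603% higher and 0.0151% lower in the paired fit. At an unadjusted p under 0.05, 7 were higher and 1 lower in the unpaired fit, and 8 higher and 7 lower in the paired fit, against 1.99%, 1.94%, 4.96% and 5.35% of all tested genes. All knockout arrays lay above all control arrays for 6 of the 158 and below them for 2, against 1.3% and 1.22% of all tested genes. In all, 64 had a log2 difference above 0 and 94 below, with a median of -0.03 against -0.00201 over all tested genes.

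Of 18 other genes of brown fat identity and heat production, 15 had a probe set, 8 were tested and 0 passed in either direction (7 below 0, 1 above, median -0.111). The brightest were Fabp3, a fatty acid carrier, at 2612 ± 820 in knockouts and 2989 ± 1333 in controls, and Slc29a1, a nucleoside transporter, at 1367 ± 116 in knockouts and 1483 ± 228 in controls (SD, n = 4 each). Of 14 beige fat markers 12 were tested and 0 passed (9 above 0, 3 below, median 0.0966). Shox2 and Hoxc8, both homeobox genes, differed by 0.00127 (SE 0.18) and 0.16 (SE 0.20) on the log2 scale.

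Of the 36 partners and upstream activators of PGC-1 proteins, 33 were tested and 0 passed (14 above 0, 19 below, median -0.0167). Cebpb, an early regulator of fat cell formation, read 24200 ± 3542 in knockouts and 27610 ± 6879 in controls, and Gabpa, which activates nuclear genes of the respiratory chain, 8794 ± 1508 in knockouts and 10180 ± 1571 in controls (SD, n = 4 each). Of the 19 repressors of PGC-1 and browning, 16 were tested and 0 passed (6 above 0, 10 below, median -0.0904). Ctbp1, a corepressor, and Twist1, which binds Ppargc1a and restrains it in brown fat, differed by -0.11 (SE 0.10) and -0.14 (SE 0.10). Of the 17 genes of beta-adrenergic and cAMP signalling, 14 were tested and 0 passed (5 above 0, 9 below, median -0.0314). Gnas, the stimulatory G protein subunit, and Prkar1a, a regulatory subunit of the cAMP-dependent kinase, differed by -0.07 (SE 0.09) and -0.05 (SE 0.12).

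Downstream, the 18 tested genes of mitochondrial DNA maintenance and transcription gave 0 past the threshold (5 above 0, 13 below, median -0.0513). Ssbp1, which binds single-stranded mitochondrial DNA, and the protease Lonp1 differed by -0.05 (SE 0.15) and -0.04 (SE 0.16). Of 23 tested genes of fatty acid oxidation and PPARalpha targets 0 passed (8 above 0, 15 below, median -0.0307). Hadhb, a subunit of the trifunctional protein of beta-oxidation, read 12670 ± 1177 in knockouts and 10610 ± 844 in controls, and Hadh, another enzyme of that pathway, 11600 ± 1473 in knockouts and 12430 ± 857 in controls (SD, n = 4 each). Of 14 tested oxidative enzymes and cytochromes 0 passed (7 above 0, 7 below, median -0.00183), and Cox4i1 and Cycs differed by 0.01 (SE 0.13) and 0.11 (SE 0.11). The 9 mitochondrial carriers other than Ucp1 and Ucp2, all tested, gave 0 calls (2 above 0, 7 below, median -0.0956), with -0.10 (SE 0.09) for the ADP/ATP carrier Slc25a4 and -0.11 (SE 0.11) for Slc25a5.

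The remaining lists were short. Of 6 tested genes of heat production without Ucp1, 3 lay above 0 and 3 below (median -0.0106), with differences of 0.08 (SE 0.11) for the calcium pump Atp2a2 and -0.10 (SE 0.16) for the creatine transporter Slc6a8. Of 6 tested genes of thyroid hormone conversion, transport and reception, 2 lay above 0 and 4 below (median -0.0824), with -0.18 (SE 0.20) for the receptor Thra and -0.02 (SE 0.15) for its partner Rxra. The 3 tested relatives and death effectors of the CIDE family all lay above 0 (median 0.469), with 0.05 (SE 0.18) for Dffa and 0.47 (SE 0.17) for Dffb, the inhibitor and the nuclease of DNA fragmentation in apoptosis. In these 3 lists 0 genes passed the threshold in either fit.

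**Figure D4:**
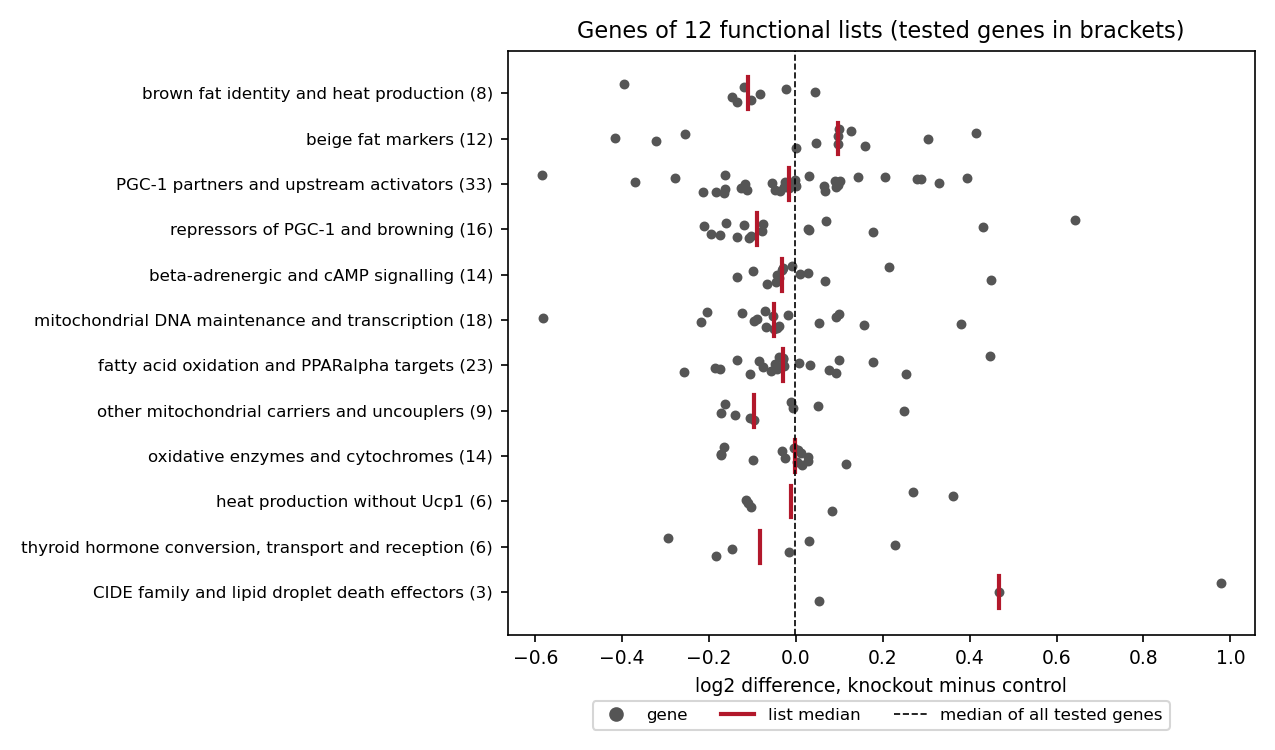
Log2 difference, knockout minus control, of the tested genes of the 12 lists (grey points), with each list's median (red) and the median of all tested genes (dashed). The medians of 11 lists lie between -0.111 and 0.0966, and that of the 3 genes of the CIDE list lies at 0.469.

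Across the 8 arrays, Ppargc1a (1456395_at) had its most similar course in Cyp7b1, an oxysterol hydroxylase (Pearson's r = 0.981, Spearman's rho = 1), followed by Tmc6 (r = 0.98), Ndnf, a secreted factor (r = 0.976), Septin9 (r = 0.972) and Fam20c, a kinase of secreted proteins (r = 0.972). Cyp7b1 read 6416.4, 3035.9, 4936.7 and 2642.2 on knockout arrays 1 to 4, against 7140.6, 9481.1, 9661.3 and 4497.7 on control arrays 1 to 4, the same order of arrays as Ppargc1a. Ndnf read 2156.6, 1068.5, 1466 and 853.9 on knockout arrays 1 to 4, against 2687, 3067.8, 3650.6 and 1803.5 on control arrays 1 to 4. The most opposite courses were those of Dstn, an actin-severing protein (r = -0.98), Zfp703 (r = -0.979), Adk (r = -0.961), Bloc1s6 (r = -0.951) and Prelid1 (r = -0.95). Without the 2 arrays farthest from the median of Ppargc1a, control 3 and knockout 4, r was 0.94 to 0.97 for the 5 most similar and -0.978 to -0.896 for the 5 most opposite genes. These genes were picked as the extremes of 13258, of which 67 had r above 0.9 and 39 below -0.9, and the 8 arrays share both the groups and the replicate numbers, so the correlations are descriptions.

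Among the other tested member probe sets the correlation with Ppargc1a was between -0.449, for 1456215_at of Tfam, and 0.432, for 1440870_at of Prdm16. Esrra (1460652_at) had r = 0.0736, Dio2 (1418938_at) r = -0.278 and Ppargc1b r = -0.321. Without control 3 and knockout 4, r was -0.149 for 1456215_at of Tfam, 0.0145 for 1440870_at of Prdm16, 0.633 for Esrra, -0.348 for Dio2 and -0.215 for Ppargc1b. The values for Tfam, Prdm16 and Esrra thus rest on those arrays.

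**Figure D5:**
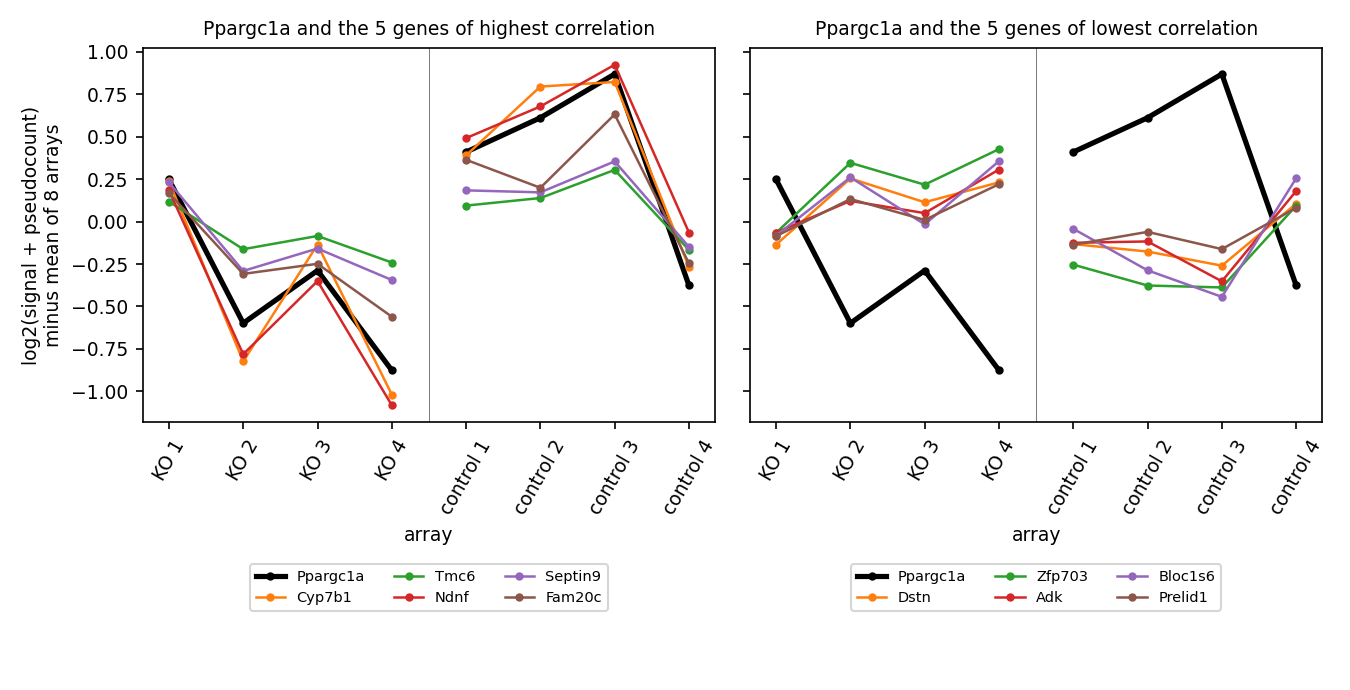
Log2(signal + 73.1) of Ppargc1a (black) and of the 5 genes with the highest (left) and the 5 with the lowest (right) correlation with it, each minus its mean over the 8 arrays, on knockout arrays 1 to 4 and control arrays 1 to 4, with lines that only join the values of 1 gene in a group. The 5 similar genes are low on knockout arrays 2 to 4 and control array 4, where Ppargc1a is low too.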

How the data were processed

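The authors deposited 1 table of linear array intensity (signal) per probe set for 8 samples, made with Affymetrix GCOS 1.3 and MAS5 per the submitters' processing notes. Its 2% trimmed mean was 1500 on each array, so the deposited values had been scaled, and any other step is not given in the sources used. Detection calls were not used here. The platform annotation gave names, with 1 symbol for 34945, several for 932 and none for 9160, apart from 64 array controls.

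With R 4.3.3 and limma 3.58.1, log2(signal + 73.1) was fitted (lmFit, then eBayes with trend), knockout minus control. Two-sided p-values were adjusted by Benjamini-Hochberg across every tested probe set. The pseudocount is the 20th percentile of all values. The SE of a probe set below the filter is that of its own linear fit. The paired fit adds the replicate number as a block. Deviations from the group means correlated at 0.341, 0.189, 0.199 and 0.372 between same-numbered arrays 1 to 4 and at -0.347 to 0.149 between others, so the labels' numbers were taken to pair the samples. Scripts were tested on simulated data.

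Named are all members, in each list the 2 brightest tested genes and those past the threshold, and the 5 genes most and least correlated with Ppargc1a. Members and lists were chosen with earlier results of these data known. Alternatives were the block, 2 pseudocounts, quantile and median scaling, 2 filters, no trend, and leaving out arrays or pairs. Python 3.11.15 with matplotlib 3.10.9 made the figures.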

Additional observations from a re-analysis of the deposited data

Results flagged for a closer look

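In 13 of 158 groups of 4 arrays 1 array lay apart, by the ratio of its gap from the nearest array to the whole range and Dixon's 95% limit for 4 values, where chance gives about 7.9. Among the members, 6 of 44 groups did so. Ppargc1a (1434099_at) read 450.6 on knockout array 1, against 161.3 to 203.8 on the other knockout arrays (ratio 0.853). Prdm16 (1429309_at) read 608.8 on knockout array 1, against 362.5 to 374 on the other knockout arrays (0.953), and its dim probe set 1440745_at read 29.5 on control array 1, against 58.4 to 63.1 (0.86). Ppara (1439675_at) read 85.6 on control array 3, against 215.7 to 223.4 (0.944), and Dio2 (1426081_a_at) read 324.7 on that array, against 20.6 to 48.4 (0.909). Cidea read 117.1 on knockout array 3, against 16.6 to 33.2 (0.835).

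Among the other genes, control array 3 was apart for Dicer1 (1460571_at, 2113.7 against 1140.7 to 1190.3, ratio 0.949) and Ssbp1 (12716.2 against 19341.1 to 20513.1, ratio 0.85). Control arrays 1, 2 and 4 were apart for Gabpa (12534.2, ratio 0.906), Thra (10497.2, ratio 0.907) and Gnas (52863.6, ratio 0.957), in that order. Knockout array 1 was low for Fabp4, a fatty acid binding protein of fat cells (1877.4 against 5952 to 6206.2, ratio 0.941), and knockout array 3 was high for Sox10 (716.9 against 428 to 472.1, ratio 0.847).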

How the results depend on the processing

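The mean log2 difference over the 5 Ppargc1a probe sets was -0.898 and stayed below 0 under all 22 alternatives. It was -1.05 with a pseudocount of 16 and -0.644 with 4 times the 20th percentile, and leaving out 1 array gave -1.19 (without control 4) to -0.611 (without knockout 4). With the replicate block, pairs 1 and 3 alone gave -0.689 and pairs 2 and 4 alone -1.11, 2 settings chosen after seeing the data, and it was -1.09 without pair 1. The count of member probe sets past the threshold was 0 under all 22. Of the 484 alternative values of the 22 member probe sets, 475 moved by less than 1 SD and 9 by more. Those of Dio2 (1418938_at) went to -0.159 in pairs 1 and 3 and 0.462 in pairs 2 and 4, and those of Prdm16 (1429309_at) to 0.444 and -0.281. The count of all probe sets called higher was 1. It was 10 with the replicate block, 0 with median centring, with no filter or without the variance trend, 0 to 2 when single arrays were left out, 0 to 45 in the blocked fit when single pairs were left out, and 5 and 0 in these subsets of pairs. The count called lower was 0, but 3 with the replicate block, 35 there without pair 1 and 1 in pairs 1 and 3. The count of list genes called was 0, and 1 in the blocked fit without pair 1, namely Prkar2a (log2 difference 0.548, limma adjusted p = 0.0377). The cause of these shifts was not tested. The replicate block over all 4 pairs changed no call of a member or of a gene of the 12 pathway lists, and added the call of the marker Dlk1. Detection calls were not used here, and probe sets under 73.1 have no usable fold.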

Other observations

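Of the 158 tested list genes, 6 had all knockout arrays above all control arrays and 2 had all below, where 1.3% and 1.22% of all tested genes did. They are named after their values were seen, and 0 of them passed the threshold in limma's unpaired or paired fit. Prkar2a, a regulatory subunit of the cAMP-dependent kinase, read 7685.2 to 9592 in knockouts and 5402.8 to 6903.2 in controls (log2 difference 0.45, SE 0.12). Rb1, the retinoblastoma gene, read 2821.4 to 3441.4 in knockouts and 2139 to 2501.9 in controls (log2 difference 0.43, SE 0.12). Tefm, an elongation factor of mitochondrial transcription, read 1170 to 1438.4 in knockouts and 1677 to 2159.1 in controls (log2 difference -0.58, SE 0.14). The citrate synthase gene Cs was the other one with all knockout arrays below, at 13582.8 to 15689.8 in knockouts and 16099.8 to 16993.3 in controls. The remaining 4 with all knockout arrays above were Tbx15, Tnfrsf9, Hadhb and Dffb. Cideb, a relative of Cidea also named after its values were seen, averaged 466 ± 135 in knockouts and 211 ± 102 in controls (SD, n = 4 each; log2 difference 0.98, SE 0.34). It was higher in 4 of 4 pairs, where 8.61% of all tested probe sets were, and had overlapping groups. Control array 3 read 63.2, under 73.1, and pair 3 differed by 2.00, while pair 4 differed by 0.059.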
